A study of Drosophila melanogaster with 15 samples.

Results

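The transcripts of 10 antimicrobial peptide genes of the fly were followed across 3 genotypes: AttA, AttB, AttC, DptA, DptB, Drs, Mtk, Dro, BomS5 and Listericin. They were chosen by name, with earlier results of these data known. Of the 10, 6 had a named probeset among the 16322 probesets of the array: AttB, DptB, Drs, Mtk, BomS5 and Listericin. AttA, AttC, DptA and Dro were not analysed here, because no probeset carried their name in the annotations used. AttA and AttB are near-identical copies that neighbour each other on chromosome 2R, so the AttB probeset may also read AttA transcripts. Drs lies on chromosome 3L and the other members lie on 2R.

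Antimicrobial peptides are small secreted molecules that flies release into the hemolymph, mainly from the fat body and in part from hemocytes. The Imd pathway senses bacterial peptidoglycan through receptors of the PGRP family and acts through the NF-kappaB factor Relish, encoded by Rel. The Toll pathway is switched on by a cascade of serine proteases after recognition of fungi or of Gram-positive bacteria, and acts through the NF-kappaB factors Dif and Dorsal. In the head, fat body lies around the brain, so RNA of a whole head holds transcripts of both tissues.

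Total RNA from homogenates of whole heads of Drosophila melanogaster was measured on 15 arrays, with 5 for each genotype. Flies named elav/v105975 had both the elav-Gal4 driver, which is active in neurons, and v105975, a UAS transgene for a hairpin RNA that targets Clic (chloride intracellular channel). Flies named elav/+ had the driver without the hairpin, and those named v105975/+ had the hairpin without the driver. No infection or other treatment is named for any group, and age and sex are not given in the sources used here. The hairpin was 1 transgene line. Whether replicate arrays stand for separate crosses is not stated, and each p-value covers only the spread among arrays, which may be technical. The values are log2 intensities made by RMA, in which a difference of 1 is a doubling of signal. Array medians lay between 6.16 and 6.24, and arrays correlated with the others of their genotype at a mean r of 0.993 to 0.995. The targeted gene, Clic, had log2 values of 8.28 to 8.50 in elav/v105975, of 8.85 to 9.05 in v105975/+ and of 9.09 to 9.23 in elav/+. The elav/v105975 arrays were below all others, and every v105975/+ array was also below every elav/+ array. Clic thus was not unchanged in v105975/+ (mean 8.94, against 9.16 in elav/+). That difference passed in limma, and the call was lost in 6 alternative settings (adjusted p up to 0.0729). Neuronal markers (4 of 4 listed genes measured) did not pass the test in any comparison (2, 2 and 1 had an unadjusted limma p under 0.05), and their summed log2 level was 12.36 to 12.49 in elav/v105975, 12.30 to 12.41 in elav/+ and 12.34 to 12.44 in v105975/+. Genotypes were compared with limma across all probesets, with Benjamini-Hochberg adjustment and a threshold of 0.05, and each member also with an exact two-sided permutation test of 5 against 5 arrays, whose smallest p is 0.00794.

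Mtk, BomS5 and Listericin, 3 of the 6 measured peptide genes, were lower in elav/v105975 heads than in elav/+ heads. Mtk was at 24.6% of its elav/+ level, BomS5 at 41.7% and Listericin at 71.4%. In v105975/+ heads, Listericin alone passed the test against elav/+, at 72.2% of the elav/+ level. No member passed between elav/v105975 and v105975/+. Both comparisons with elav/+ rest on the same 5 elav/+ arrays, so they are not independent of each other.

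**Figure D1:**
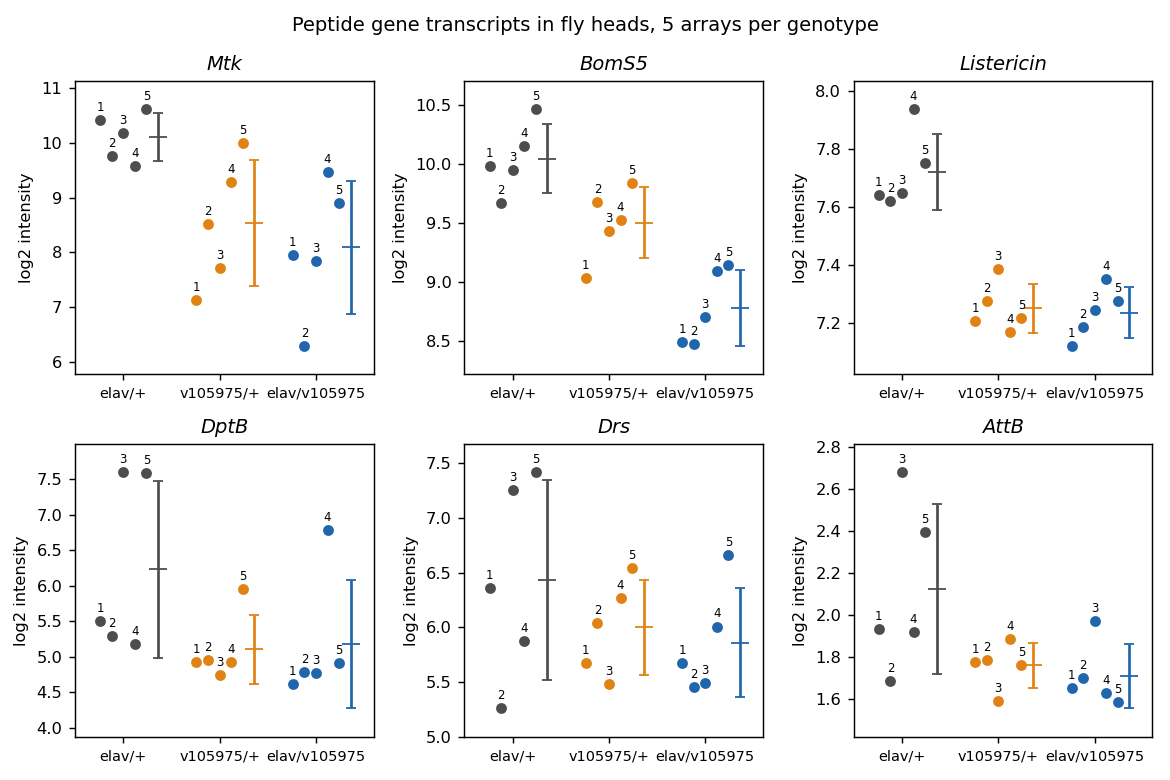
Log2 intensity (y axis) of the 6 measured peptide genes in the 5 arrays of each genotype (x axis), with a point for each array and the mean and SD beside the points. Mtk, BomS5 and Listericin of elav/v105975 lie below every elav/+ array, while AttB, DptB and Drs overlap between genotypes.

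Among the peptides linked to the Toll pathway, BomS5 encodes a short Bomanin, a member of a peptide family that flies need for Toll-dependent resistance to infection. BomS5 had log2 intensities of 9.99, 9.67, 9.95, 10.15 and 10.46 in elav/+ replicates 1 to 5. In v105975/+ it had 9.04, 9.68, 9.44, 9.53 and 9.84, and in elav/v105975 it had 8.49, 8.48, 8.71, 9.10 and 9.14. None of the elav/v105975 values reached the lowest of elav/+, and the v105975/+ arrays lay between and overlapped both. The mean fell by 1.26 on the log2 scale from elav/+ (10.05 ± 0.291, SD, n = 5) to elav/v105975 (8.78 ± 0.321, SD, n = 5), with an SE of 0.176 and an adjusted p of 3.54e-04 in limma. The exact permutation test gave p = 0.00794, the smallest it can give. The mean of v105975/+ was 9.50 ± 0.301 (SD, n = 5). Its log2 difference from elav/+ was -0.54 (95% confidence interval -0.92 to -0.17) and did not pass (limma adjusted p = 0.0898, exact permutation p = 0.0238). Between elav/v105975 and v105975/+ the log2 difference was -0.72 (-1.10 to -0.35), with an adjusted p of 0.122 in limma and an exact permutation p of 0.0238. The order of the means was thus elav/+, v105975/+ and elav/v105975, and neither step next to v105975/+ passed the threshold across all probesets.

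Mtk encodes metchnikowin, a proline-rich peptide active against fungi and Gram-positive bacteria that can be induced through both pathways. Its log2 intensities were 10.42, 9.77, 10.19, 9.57 and 10.61 in elav/+, 7.13, 8.52, 7.72, 9.29 and 10.0003 in v105975/+, and 7.95, 6.29, 7.84, 9.47 and 8.90 in elav/v105975. The elav/+ arrays were close together (SD 0.435, n = 5), whereas those of v105975/+ (SD 1.16) and elav/v105975 (SD 1.21) were spread widely. The highest elav/v105975 array, at 9.47, was just below the lowest elav/+ array, at 9.57. The mean log2 difference of elav/v105975 from elav/+ was -2.02 (SE 0.568, 95% confidence interval -3.23 to -0.81), with an adjusted p of 0.0364 in limma and an exact permutation p of 0.00794. No other probeset had a more negative log2 difference in this comparison. The call for Mtk was lost when any 1 of the 5 elav/+ arrays was left out (adjusted p 0.0683, 0.0541, 0.0721, 0.0507 and 0.0821 without replicates 1 to 5). It was also lost without elav/v105975 replicate 1 (0.0682), replicate 2 (0.0846) or replicate 3 (0.0711), although the log2 difference remained between -2.37 and -1.57. In v105975/+ the log2 difference of Mtk from elav/+ was -1.58 (-2.79 to -0.37) and did not pass (limma adjusted p = 0.132, exact permutation p = 0.0238). Replicate 5 of v105975/+, at 10.0003, lay within the elav/+ range. Between elav/v105975 and v105975/+ the log2 difference was -0.44, with a wide interval of -1.65 to 0.77.

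Drs encodes drosomycin, an antifungal peptide and a classical readout of Toll signalling in the fat body. Its log2 intensities were 6.36, 5.26, 7.25, 5.88 and 7.42 in elav/+, 5.67, 6.04, 5.48, 6.27 and 6.54 in v105975/+, and 5.68, 5.45, 5.49, 6.01 and 6.66 in elav/v105975. The genotypes overlapped, and the single lowest array was elav/+ replicate 2. The log2 difference from elav/+ was -0.58 (-1.37 to 0.21) in elav/v105975, with a limma adjusted p of 0.387, and -0.43 (-1.22 to 0.36) in v105975/+, with 0.614. These intervals hold both no difference and a decrease of the size seen for BomS5 in v105975/+.

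Among the peptides linked to the Imd pathway, Listericin encodes an antibacterial peptide whose induction in flies has been tied to the sensor PGRP-LE and to JAK-STAT signalling. Its log2 intensities were 7.64, 7.62, 7.65, 7.94 and 7.75 in elav/+, 7.21, 7.27, 7.39, 7.17 and 7.22 in v105975/+, and 7.12, 7.18, 7.24, 7.35 and 7.27 in elav/v105975. Every array with the hairpin transgene was below every elav/+ array, and the arrays of v105975/+ and elav/v105975 covered nearly the same range. Listericin fell by 0.49 on the log2 scale in elav/v105975 (SE 0.0677, limma adjusted p = 3.55e-04) and by 0.47 in v105975/+ (SE 0.0677, limma adjusted p = 7.24e-04), with an exact permutation p of 0.00794 in each. The log2 difference between elav/v105975 and v105975/+ was -0.01, with a 95% confidence interval of -0.16 to 0.13. Listericin had the smallest spread of the members, with a pooled SD within genotypes of 0.104, and 69.2% of all probesets had a larger one.

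DptB encodes a diptericin, a glycine-rich peptide against Gram-negative bacteria that is induced through Imd. Its log2 intensities in elav/+ were 5.50, 5.29, 7.60, 5.18 and 7.59, so that replicates 3 and 5 stood more than 2 units above the other arrays of that genotype. In v105975/+ they were 4.93, 4.96, 4.74, 4.92 and 5.95, and in elav/v105975 they were 4.62, 4.78, 4.77, 6.78 and 4.91. One array in each of these genotypes, v105975/+ replicate 5 and elav/v105975 replicate 4, was above the lower elav/+ arrays. The log2 difference from elav/+ was -1.06 (-2.19 to 0.07) in elav/v105975 and -1.13 (-2.26 to -0.00) in v105975/+, with limma adjusted p-values of 0.247 and 0.269 and exact permutation p-values of 0.175 and 0.119. Neither difference passed, given the spread between arrays. The pooled SD of DptB was 0.933, a value exceeded by 0.0919% of probesets, and that of Mtk was 1.0003, exceeded by 0.0735%.

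AttB encodes an attacin, another glycine-rich peptide induced by Gram-negative bacteria. Its signal was among the dimmest on the array, with a mean below which lay only 0.919% of probesets, and the deposited values carry no detection call. Its log2 intensities were 1.93, 1.69, 2.68, 1.92 and 2.39 in elav/+, 1.77, 1.79, 1.59, 1.89 and 1.76 in v105975/+, and 1.65, 1.70, 1.97, 1.63 and 1.59 in elav/v105975. The elav/+ arrays reached highest, in replicates 3 and 5, and their lower arrays overlapped both other genotypes. The log2 difference from elav/+ was -0.41 (-0.73 to -0.10) in elav/v105975 and -0.36 (-0.68 to -0.04) in v105975/+, with limma adjusted p-values of 0.0996 and 0.195. Without elav/+ replicate 2, the lowest AttB array of that genotype, the adjusted p in elav/v105975 was 0.0343.

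**Figure D2:**
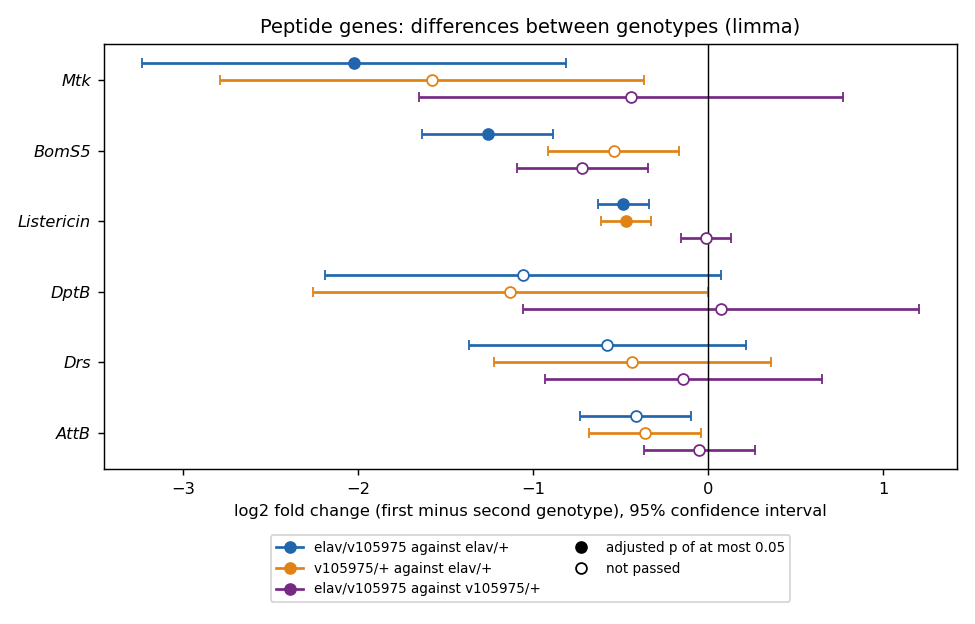
Log2 fold change (x axis) of each measured peptide gene (y axis) in the 3 comparisons, with 95% confidence intervals, and filled points for an adjusted p of at most 0.05 in limma. Mtk, BomS5 and Listericin are filled for elav/v105975 against elav/+, Listericin alone for v105975/+ against elav/+, and none for elav/v105975 against v105975/+.

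The counts of members were read against all probesets. In elav/v105975 against elav/+, 3 of 6 measured members passed as lower, where 5.17% of probesets passed as lower and 4.26% as higher. The ranges of both genotypes did not overlap, with elav/v105975 lower, for these 3 members and for 4.92% of probesets. The 6 log2 differences were all below 0, with a median of -0.82, and 50.5% of all probesets were below 0. In v105975/+ against elav/+, 1 of 6 passed as lower, where 3.47% of probesets passed as lower and 2.62% as higher, and the arrays lay fully below for 1 member and for 3.87% of probesets. The 6 differences were again below 0, with a median of -0.51, against 47.9% of all probesets. Between elav/v105975 and v105975/+ no member passed, where 0.202% of probesets passed as lower and 0.214% as higher, no member lay fully below, where 1.07% of probesets did, and the median was -0.10. Without adjustment, 4, 5 and 1 of the 6 members had a limma p under 0.05 in the 3 comparisons, and the 1 between elav/v105975 and v105975/+ was BomS5. The shares of all probesets are a description of the background, since the members were few and some of them vary together. The members were also chosen with earlier results of these data known.

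Further short peptides induced by Toll were lower alongside BomS5. Of 17 listed genes 12 were measured, and 7 of the 12 passed as lower in elav/v105975 than in elav/+ while none passed as higher: BomS3, BomS4, BomS6, BomT2, BomBc3, BaraA2 and Dso2. Over all probesets, 5.17% passed as lower and 4.26% as higher. This list, too, was chosen with earlier results of these data known. The log2 difference was below 0 for all 12, as for 50.5% of all probesets, with a median of -0.58, and with 1 array left out at a time 6 to 9 of the 12 passed. BomT2, a tailed Bomanin, fell by 0.88 on the log2 scale (limma adjusted p = 0.00371), from 9.25 to 9.48 in elav/+ down to 7.92 to 8.80. BaraA2, which encodes a precursor of several antifungal peptides, fell by 0.75 (limma adjusted p = 0.00458), from 8.51 to 9.18 down to 7.64 to 8.33. BaraA1, which lies close by on chromosome 2R, had no named probeset, and whether the BaraA2 probeset also reads its transcripts was not tested. BomS3, BomBc3, BomS6 and BomS4 fell by 0.60, 0.71, 0.58 and 0.37, with limma adjusted p-values of 0.00261, 0.00578, 0.0121 and 0.0140, and the arrays of both genotypes did not overlap. Dso2, a Daisho peptide chosen for naming after its value was seen, fell by 0.68 (limma adjusted p = 0.0366). That call was lost without elav/+ replicate 1 (0.0520), 3 (0.0559), 4 (0.0824) or 5 (0.0913), and without elav/v105975 replicate 1 (0.0834), 2 (0.0960) or 3 (0.0770).

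In v105975/+ against elav/+, where 3.47% of probesets passed as lower, 1 of these 12 genes did, BomT2, which fell by 0.75 (limma adjusted p = 0.0143), and the median log2 difference was -0.21. BomS6, at an adjusted p of 0.0809, reached 0.0396 there without elav/v105975 replicate 2, 0.0454 with a replicate block and 0.0477 with an intensity trend. Between elav/v105975 and v105975/+ all 12 differences were below 0, with a median of -0.29, and none passed in limma (4 had an unadjusted p under 0.05). BomS3 came nearest, with a log2 difference of -0.51 (-0.74 to -0.29) and an adjusted p of 0.0522. Its arrays ranged from 10.18 to 10.54 in elav/v105975 and from 10.77 to 11.11 in v105975/+, without overlap. The adjusted p for BomS3 was 0.0324 without elav/+ replicate 1 and 0.0167 without elav/+ replicate 3. BomS3 also passed with an intensity trend (0.0166), in a fit of the 10 compared arrays alone (0.0227), with the dimmest probesets left out (0.0352), with array weights (0.0365) and after a further quantile normalization (0.0445). BomBc3 and BaraA2 had differences of -0.51 and -0.50 with adjusted p-values of 0.211 and 0.241.

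Of the listed Bomanin genes, 10 stand side by side on chromosome 2R in the RefSeq annotation, with 0 other genes between them, and 8 of them were measured. In elav/v105975, 5 of the 8 passed as lower than in elav/+ (BomS3, BomS4, BomS5, BomS6 and BomT2), where 5.17% of all probesets did. These 5 were already counted above, with the members or the short peptides. Of them, 4 follow each other at one end of the cluster, in the order BomS3, BomT2, BomS5 and BomS6. Every measured gene of the cluster had a log2 difference below 0, as did 50.5% of all probesets. BomS5 had the most negative log2 difference of the 8. The other measured genes of the cluster, BomT1, BomBc2 and BomS2, had log2 differences of -0.49, -0.54 and -0.58 with limma adjusted p-values of 0.160, 0.0621 and 0.0611. Short Bomanin genes resemble each other in sequence, and how far a probeset reads its neighbours' transcripts was not tested.

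Further antimicrobial peptide genes gave no call in the fit used throughout. Of 13 listed genes 10 were measured (Drosomycin-like genes, AttD, CecB, Def and edin among the list), and none passed in limma in any of the 3 comparisons (1, 3 and 0 had an unadjusted p under 0.05). Over all probesets, 5.17%, 3.47% and 0.202% passed as lower and 4.26%, 2.62% and 0.214% as higher. At such shares a count of 0 in 10 says nothing particular of the list. The median log2 difference of these 10 genes was close to 0, at -0.03 for elav/v105975 against elav/+ and 0.05 for v105975/+ against elav/+. Drsl4 was the lowest, at -0.30 in elav/v105975 (limma adjusted p = 0.0869) and -0.36 in v105975/+ (0.0515). Its adjusted p in v105975/+ was 0.0398, 0.0464 and 0.0298 without elav/+ replicate 1, v105975/+ replicate 2 and v105975/+ replicate 4. On all 15 arrays, Drsl4 passed in v105975/+ with array weights (0.0450), with an intensity trend (0.0369) or with the dimmest probesets left out (0.0353), and in elav/v105975 with array weights (0.0491). Drsl5 in v105975/+ was the highest, at 0.39 (limma adjusted p = 0.123).

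**Figure D3:**
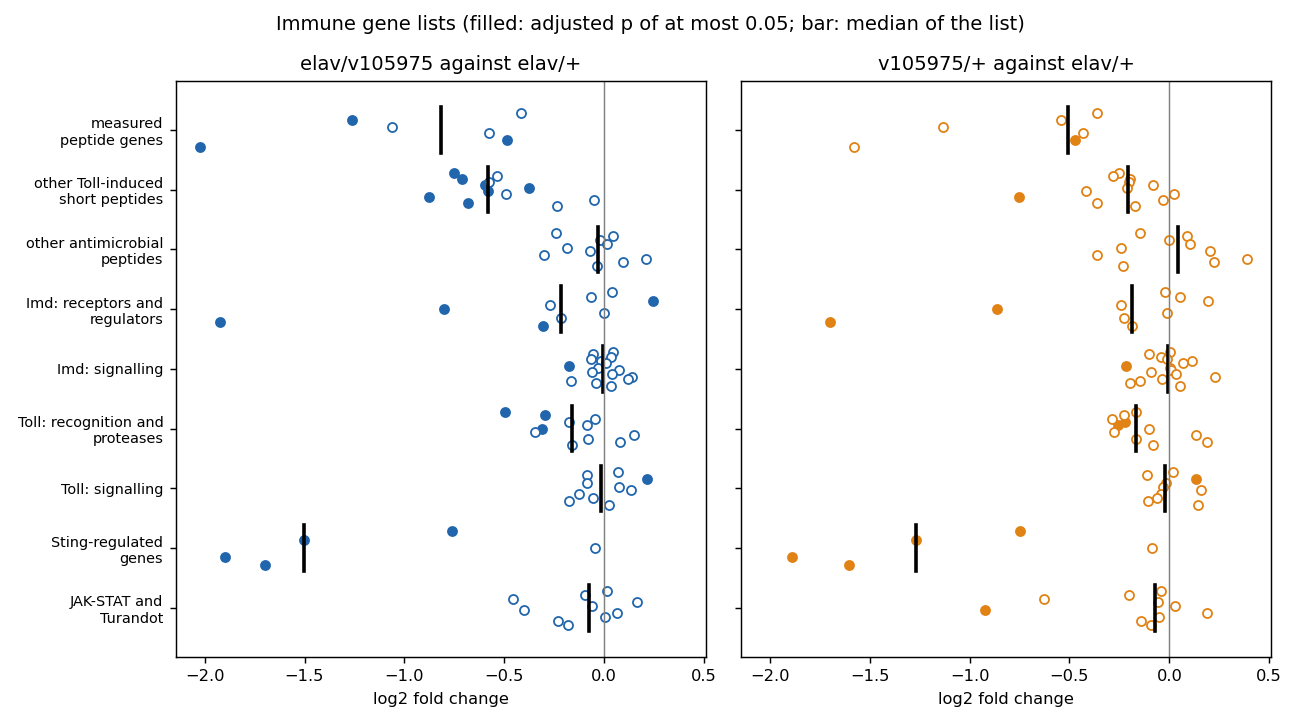
Log2 fold change (x axis) of each measured gene of the immune gene lists (y axis) in the comparisons of elav/v105975 and of v105975/+ with elav/+, with filled points for an adjusted p of at most 0.05 in limma and a bar at each list's median. The Toll-induced short peptides have a median of -0.58 in elav/v105975 and -0.21 in v105975/+, and the Sting-regulated genes -1.502 and -1.27.

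Upstream of the Imd peptides, the listed receptors and regulators of the pathway were led by PGRP-SD, a secreted recognition protein that promotes Imd signalling. PGRP-SD had log2 values of 8.10 to 8.72 in elav/+, of 6.21 to 7.17 in v105975/+ and of 5.96 to 7.05 in elav/v105975. The elav/+ arrays were above all others, and the 2 hairpin genotypes overlapped. PGRP-SD fell by 1.92 in elav/v105975 (limma adjusted p = 8.28e-05) and by 1.70 in v105975/+ (3.79e-04), and the difference between these genotypes was -0.23 (-0.71 to 0.25, adjusted p = 0.809). Of the 9 measured genes of this list, 3 were lower and 1 higher in elav/v105975 (5.17% and 4.26% of all probesets), and 2 were lower in v105975/+ (3.47%).

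The other calls of that list did not hold without every array. PGRP-SB1, a secreted amidase, had log2 differences of -0.80 in elav/v105975 and -0.86 in v105975/+ (limma adjusted p = 0.0430 and 0.0412). Either call was lost when elav/+ replicate 1, 3, 4 or 5, elav/v105975 replicate 1 or v105975/+ replicate 2 was left out. That in elav/v105975 was also lost when elav/v105975 replicate 2 or 3 was left out (adjusted p up to 0.112), and that in v105975/+ when v105975/+ replicate 1, 3 or 4 was (up to 0.104). The call of pirk, an inhibitor of Imd signalling, at -0.31 in elav/v105975 (limma adjusted p = 0.0304), was lost without elav/+ replicate 2, 4 or 5 or elav/v105975 replicate 1, 4 or 5 (up to 0.0740). PGRP-LE, an intracellular receptor of the pathway, was higher by 0.25 in elav/v105975 (limma adjusted p = 0.0238), and this was lost without elav/+ replicate 2 (0.0508) or 4 (0.0533). It was also lost in a fit of the 10 compared arrays alone (0.0669). In v105975/+ PGRP-LE, at 0.0936, reached 0.0152 without elav/v105975 replicate 4, 0.0317 in a fit of the 10 compared arrays alone and 0.0492 with arrays centred on their medians.

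Of 16 measured Imd signalling proteins, Rel alone passed, a share near that of all probesets (5.17% lower in elav/v105975 and 3.47% in v105975/+), so the count says nothing particular of the list. Its log2 values were 8.45 to 8.66 in elav/+, 8.29 to 8.45 in v105975/+ and 8.33 to 8.40 in elav/v105975. Rel fell by 0.17 in elav/v105975 (limma adjusted p = 0.0355) and by 0.21 in v105975/+ (0.0164). The call in elav/v105975 was lost without elav/+ replicate 2, 3 or 5 or without any 1 of the elav/v105975 arrays (adjusted p up to 0.0881), in a fit of the 10 compared arrays alone (0.0659), with a replicate block (0.0614) and with arrays centred on their medians (0.0532). The call in v105975/+ was lost in a fit of the 10 compared arrays alone (0.0560).

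Upstream of the Toll peptides, 3 of 11 measured genes of recognition and of the protease cascade were lower in elav/v105975 (GNBP3, Hayan and nec) and 2 in v105975/+ (grass and Spn88Ea), where 5.17% and 3.47% of all probesets were. GNBP3, the sensor of fungal glucans, fell by 0.50 in elav/v105975 (limma adjusted p = 0.00163), from 7.74 to 8.10 in elav/+ down to 7.30 to 7.72, and its difference in v105975/+ was -0.17 (0.302). The serine protease Hayan and the serpin nec had log2 differences of -0.29 and -0.31 in elav/v105975 (limma adjusted p = 0.0260 and 0.0313). Hayan's call was lost without elav/+ replicate 3, 4 or 5 or elav/v105975 replicate 1, 2 or 3 (up to 0.0673), and that of nec without elav/+ replicate 1, 4 or 5 or elav/v105975 replicate 1, 2 or 3 (up to 0.0840). The protease grass and the serpin Spn88Ea had differences of -0.25 and -0.22 in v105975/+ (limma adjusted p = 0.0385 and 0.0325). Both calls were lost without elav/+ replicate 1, 3, 4 or 5 or v105975/+ replicate 1, 2 or 3 (grass up to 0.0994, Spn88Ea up to 0.0864), and that of Spn88Ea also without v105975/+ replicate 4. In fits of the 10 compared arrays alone the calls of Hayan, nec, grass and Spn88Ea were lost as well (0.0556, 0.0566, 0.0664 and 0.0764), and that of grass with a replicate block (0.0522). Spn88Ea, at 0.0689 in elav/v105975, passed there with an intensity trend (0.0376), array weights (0.0408) or the dimmest probesets left out (0.0439).

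Of 10 measured Toll signalling proteins, Gprk2, a kinase needed for Toll signalling, alone passed in the fit used throughout, where 4.26% and 2.62% of all probesets passed as higher. It was higher by 0.21 in elav/v105975 (limma adjusted p = 0.00269) and by 0.14 in v105975/+ (0.0492), and the second call was lost when any 1 of the 15 arrays was left out (up to 0.127). The Toll kinase pll was at -0.18 in elav/v105975 (limma adjusted p = 0.0502). It passed without elav/+ replicate 1 (0.0262), v105975/+ replicate 1 (0.0482) or v105975/+ replicate 2 (0.0450), and on all 15 arrays with a replicate block (0.0420), array weights (0.0352) or the dimmest probesets left out (0.0301). The log2 difference of cact, which encodes the inhibitor of Dif and Dorsal, was -0.12 in elav/v105975 (limma adjusted p = 0.206) and -0.04 in v105975/+ (0.783). Of 10 measured JAK-STAT and stress-induced peptide genes none passed in elav/v105975 (1 had an unadjusted p under 0.05). TotM, a stress-induced Turandot, passed in v105975/+ at -0.92 (limma adjusted p = 0.0301), and this was lost without elav/+ replicate 1, 2, 3 or 5 or v105975/+ replicate 3, 4 or 5 (up to 0.0761). Over all probesets, 5.17% passed as lower in elav/v105975 and 3.47% in v105975/+.

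Genes tied to Sting, the receptor of cyclic dinucleotides that signals to Relish in flies, stood lower in both hairpin genotypes. Of 5 measured genes, Sting, Srg1, Srg3 and Nazo (4 genes) fell in both comparisons with elav/+, where 5.17% and 3.47% of all probesets were lower. Sting had log2 values of 8.11 to 8.52 in elav/+, 6.29 to 7.21 in v105975/+ and 6.20 to 7.09 in elav/v105975, and fell by 1.70 in elav/v105975 and 1.60 in v105975/+ (limma adjusted p = 7.29e-05 and 1.64e-04). The log2 differences in elav/v105975 and v105975/+ were -1.502 and -1.27 for Srg1, -1.90 and -1.89 for Srg3, and -0.76 and -0.75 for Nazo, an antiviral gene (limma adjusted p between 0.00133 and 0.0134). As for Listericin and PGRP-SD, no difference between elav/v105975 and v105975/+ passed for these genes, and that for Sting was -0.09 (-0.51 to 0.32). Over the 5 measured genes these differences ranged from -0.24 to 0.04. The spread was wide for Srg3, with an SD of 0.820 in v105975/+. Nazo was dim, with means of 3.61 in elav/+, 2.86 in v105975/+ and 2.85 in elav/v105975. Its highest elav/v105975 array (3.36) was above the lowest elav/+ array (3.20).

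Some markers of the fat body, the main source of the peptides, also differed between genotypes. Of 6 listed and measured markers, 3 were lower in elav/v105975 than in elav/+, namely apolpp, a lipoprotein precursor, and the yolk protein genes Yp1 and Yp3. Their log2 differences were -0.34, -0.28 and -0.59 (limma adjusted p = 0.0204, 0.0355 and 0.0253). Over all probesets, 5.17% passed as lower in that comparison. The other markers, Yp2, Lsp2 and Fbp1, did not pass. Differences in the list ranged from -0.59 to 0.04, and 5 of the 6 were below 0. Without elav/v105975 replicate 2 the adjusted p of apolpp was 0.0505. The calls of both yolk protein genes were lost without elav/+ replicate 1 or 3 or elav/v105975 replicate 1, 2 or 3, that of Yp3 also without elav/+ replicate 5 (up to 0.0653) and that of Yp1 also without elav/+ replicate 2 or 4 (up to 0.0911). None of the 6 passed in v105975/+ in the fit used throughout (4 had an unadjusted limma p under 0.05), while for 4 of them every value of v105975/+ was below the lowest of elav/+. Over all probesets, 3.47% passed as lower there and 3.87% lay fully below. The 6 differences there ranged from -0.91 to -0.002, and 47.9% of all probesets were below 0. In that comparison Yp1 reached 0.0478 without elav/v105975 replicate 3 and 0.0302 without replicate 5, apolpp 0.0389 without replicate 2 and 0.0259 without replicate 5, and Yp3 0.0186 without replicate 5. With an intensity trend, and in a fit of the 10 compared arrays alone, all of Yp1 (0.0338 and 0.0348), apolpp (0.0278 and 0.0239) and Yp3 (0.0426 and 0.00756) passed there. Yp1 and Yp3 also passed with array weights (0.0393 and 0.0440), Yp1 and apolpp with the dimmest probesets left out (0.0466 and 0.0396), and apolpp after a further quantile normalization (0.0356).

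The summed log2 level of the 6 fat body markers was 14.73 to 14.94 in elav/+, 14.30 to 14.54 in v105975/+ and 14.12 to 14.80 in elav/v105975. The elav/+ arrays were above all v105975/+ arrays and overlapped elav/v105975 at the upper end of its range. The median was lowest in elav/v105975, at 14.24, against 14.36 in v105975/+ and 14.76 in elav/+. Between elav/v105975 and v105975/+ the log2 differences of the single markers ranged from -0.11 to 0.95, and none passed. Of 5 hemocyte markers measured none passed against elav/+ (0 had an unadjusted limma p under 0.05), and their summed log2 level was 10.58 to 10.65 in elav/+, 10.49 to 10.68 in v105975/+ and 10.51 to 10.70 in elav/v105975. Photoreceptor markers moved the other way. Of 3 listed genes 2 were measured, trp, a channel of phototransduction, and norpA, the phospholipase C of the same route. In elav/v105975 both were higher than in elav/+, by 0.30 and 0.22 (limma adjusted p = 0.00737 and 0.00227), and in v105975/+ trp was higher by 0.28 (0.0171), while norpA was at 0.13 (0.0664). Over all probesets, 4.26% and 2.62% passed as higher in these comparisons. The norpA value passed in v105975/+ with an intensity trend (0.0140), array weights (0.0471), the dimmest probesets left out (0.0342) or a further quantile normalization (0.0120). The summed log2 level of trp and norpA was 12.46 to 12.64 in elav/+, below every array of v105975/+ (12.72 to 12.80) and of elav/v105975 (12.72 to 12.88). None of 3 glial markers passed (0 had an unadjusted limma p under 0.05). In RNA of whole heads, fewer cells of a type and less RNA per cell cannot be told apart, and the part of the fat body and photoreceptor markers in the lower peptide transcripts was not tested. The sex of the flies is not given, and its part in the yolk protein values was not tested.

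Some of the peptide genes also varied together between arrays of the same genotype. After the genotype mean was removed, the Pearson r of 15 pairs of members over the 15 arrays had a median of 0.528, ranged from -0.171 to 0.767 and was above 0 for 13 pairs. With 100000 permutations within genotypes and adjustment over the 15 pairs, 3 pairs passed by Pearson's r and 3 by Spearman's rho. Mtk and BomS5 had r = 0.767 (permutation p = 0.00158, adjusted 0.0164) and rho = 0.754 (0.00311, adjusted 0.0233), and r was 0.721 without the 2 arrays farthest from the median of Mtk. Drs and Mtk had r = 0.618 (permutation p = 0.00219, adjusted 0.0164) and rho = 0.789 (adjusted 0.00240), and 0.699 without 2 arrays. Drs and BomS5 had r = 0.690 (permutation p = 0.00519, adjusted 0.0260) and rho = 0.621 (adjusted 0.0733), and 0.536 without 2 arrays.

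DptB and Drs had r = 0.727 (permutation p = 0.0193, adjusted 0.0580) and rho = 0.761 (adjusted 0.0321), and 0.775 without the 2 arrays farthest from the median of DptB. Arrays elav/+ replicates 3 and 5 were the highest of that genotype for both genes. Listericin had r = 0.494 with BomS5 (permutation p = 0.0837, adjusted 0.143) and rho = 0.579 (0.0421, adjusted 0.105), and r was 0.500 without 2 arrays, so that this pair did not pass. With the other 4 members its r lay between -0.171 and 0.0611, among them 0.0349 with Mtk (permutation p = 0.895, adjusted 0.929, rho = 0.0464). AttB had r = 0.612 with DptB and 0.645 with Drs, but 0.111 with Mtk, 0.166 with BomS5 and -0.171 with Listericin. No pair with AttB passed by r or rho. The values of a pair come from the same RNA and the same array. The permutations took no account of the replicate number, and replicate 5 was the highest array of each genotype for both BomS5 and Drs.

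**Figure D4:**
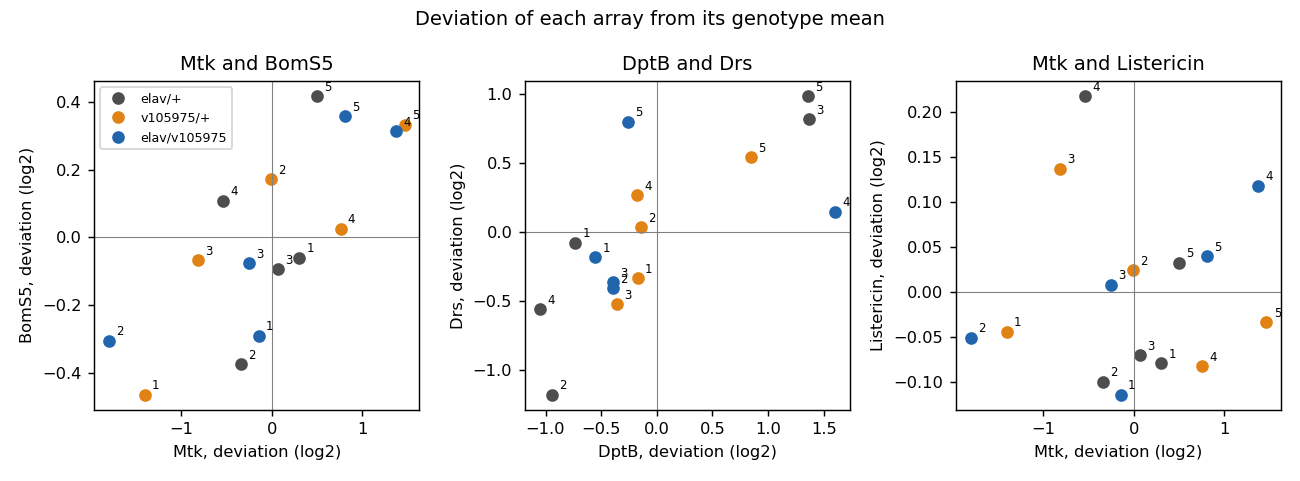
Deviation of each of the 15 arrays from its genotype mean, in log2 units, for pairs of peptide genes (one gene per axis), with points coloured by genotype. The points of Mtk and BomS5 rise together (r = 0.767), as do those of DptB and Drs (r = 0.727), where elav/+ replicates 3 and 5 stand at the upper right.

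Outside the immune lists, the genes most like the members over the 15 arrays were found by Pearson's r with the mean of the 6 members, each scaled to unit variance. These were CG9449 (r = 0.942), eIF3d1 (0.930), Paics (0.929), CG5958 (0.925), Prps (0.922), CG15096 (0.920), arg (0.918) and Cyp9b1 (0.917). The members themselves had r between 0.760 and 0.871 with that mean, which each of them enters. These correlations hold the genotype differences and the shared arrays, and are given as a description. Paics encodes an enzyme of purine synthesis, Prps makes the phosphoribosyl donor of that route, and arg encodes arginase. CG9449, the nearest of them, fell by 0.56 (log2) in elav/v105975 and by 0.45 in v105975/+ (limma adjusted p = 0.00139 and 0.00977).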

How the data were processed

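RNA from whole heads was hybridized to GeneChip Drosophila Gene 1.0 ST arrays (Affymetrix). The authors deposited a log2 intensity for each probeset and array, made by RMA with oligo 1.44.0 (background correction, quantile normalization and summary of the probes of a probeset). Quantile normalization hides any shift common to most transcripts. The number of arrays limits the precision. All 16322 probesets of the 15 arrays were fitted with lmFit, contrasts.fit and eBayes of limma 3.58.1 (R 4.3.3, default settings), without further normalization, and p-values were adjusted by Benjamini-Hochberg over all probesets. Percent levels were computed from log2 differences with 95% confidence intervals. An exact permutation test went through the 252 ways to divide 10 arrays. The fit was tested on simulated arrays with known changes.

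Of the probesets, 13440 carried 1 platform symbol, of which 13063 were matched to RefSeq by Entrez identifier. A further 202 were named through the study's supplementary annotation (BomS3, BaraA2 and PGRP-SD among them), 555 carried several symbols and 2125 had no name here. For a gene with several probesets, the one with the highest mean was used. No sequence is shown, since no sequence table was used. The members and gene lists were chosen with earlier results of these data known. Named genes are the listed members, up to 6 genes of each list that passed in any comparison (or the 2 with the smallest p), PGRP-SD, Rel, cact and Clic, and the 8 genes most like the members. As alternatives, each array was left out in turn, the fit was limited to the compared arrays, the replicate number was added as a block, eBayes was run robustly or with an intensity trend, arrays were weighted, arrays were centred on their median or quantile-normalized again, the dimmest 25% of probesets were dropped, p-values were adjusted over probesets with 1 symbol, and the threshold was set at 0.01 or joined with a fold change of 1.5.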

Additional observations from a re-analysis of the deposited data

Results flagged for a closer look

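Of 18 groups of 5 arrays (6 members in 3 genotypes), 2 had an array far from the rest, with a gap to its nearest neighbour over the whole range above Dixon's 95% critical value, and both were of DptB. In elav/v105975, replicate 4 was at 6.78 on the log2 scale, while the nearest array was at 4.91 and the lowest at 4.62 (gap over range 0.864). In v105975/+, replicate 5 was at 5.95, while the nearest array was at 4.96 and the lowest at 4.74 (gap over range 0.823). Chance marks about 1 in 20 such groups. Elav/v105975 replicate 4 was also the highest array of its genotype for Mtk (9.47) and Listericin (7.35), and v105975/+ replicate 5 was the highest of its genotype for Mtk (10.0003), BomS5 (9.84) and Drs (6.54).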

How the results depend on the processing

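The number of members that passed as lower in elav/v105975 than in elav/+ was 2 to 3 with 1 array left out at a time, where Mtk was the member lost. In v105975/+ against elav/+ it was 1 throughout those settings, and in elav/v105975 against v105975/+ it was 0. Over all probesets, same-numbered arrays of different genotypes did not deviate together (mean r 0.0342, range -0.0760 to 0.176 over 15 pairs), and 1 of 15 arrays correlated best with an array of its own number, so the numbers were not taken as pairs. Some single members differed from this. Replicate 5 was the highest array of all 3 genotypes for BomS5 (10.46 in elav/+, 9.84 in v105975/+ and 9.14 in elav/v105975) and for Drs (7.42, 6.54 and 6.66). For Mtk, replicate 5 was the highest in elav/+ and v105975/+. What the replicate numbers stand for is not stated. With the replicate number as a block, BomS5 passed as well in v105975/+ against elav/+ (2 members, adjusted p = 0.0195) and in elav/v105975 against v105975/+ (1 member, 0.0204), and no other call of a member changed. BomS5 also passed in the latter comparison with array weights (1 member, adjusted p = 0.0404). With a fold change of at least 1.5 required, 0 members passed in v105975/+ against elav/+.

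Over all probesets, 1539, 995 and 68 passed in elav/v105975 against elav/+, v105975/+ against elav/+ and elav/v105975 against v105975/+. At an adjusted p of 0.01, 635 passed in the first and 385 in the second. With a fold change of at least 1.5, 222, 193 and 33 passed. Adjusted over probesets with 1 symbol, 42 passed in the last comparison. With 1 array left out, the counts were 1061 to 1519, 628 to 1014 and 53 to 72. The lowest in v105975/+ against elav/+ were without v105975/+ replicate 1 (628) and elav/+ replicate 3 (639).

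For single members, 411 values kept direction and side of the threshold, 8 lost the call (all Mtk in elav/v105975 against elav/+), 4 gained one and 6 changed sign. The changes of sign were differences between elav/v105975 and v105975/+ close to 0. DptB was at -0.012 with array weights and at -0.33 to 0.28 with 1 array left out, Listericin at -0.044 to 0.019 and Mtk at -0.79 to 0.0066. The median correlation of members was 0.529 by Spearman's rho and 0.424 to 0.580 with 1 array left out. AttB drops out of the brighter 75% of probesets, so it has no value there. Averaging AttA with AttB and using other probesets of a member were not run, since AttA had no named probeset and each member had 1.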
